A study of Mus musculus with 16 samples.

Results

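The comparison set the d16HER2 mammary tumour cell lines MI6 and MI7 against a single line carrying wild-type HER2, WTHER2-2. Its members were chosen by the cell line named in the sample labels, which gave 12 of the 16 arrays of the series, 4 for each of the 3 lines. The other wild-type line, WTHER2-1, was left out of both normalization and testing. All 3 lines are mouse mammary tumour lines and all carry a HER2 transgene, so no line without a transgene stands as a control. The genotype label of MI6 and MI7 is transgenic d16HER2-positive and that of WTHER2-2 is transgenic WT HER2-positive. The labels give neither the promoter of the transgene nor the strain, age or passage of the source. No treatment is named, and no label tells if the 4 arrays of each line came from separate cultures, so p-values measure only the spread between arrays, which may be technical. With 1 wild-type line, a difference between transgenes cannot be told apart from a difference between lines.

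HER2, encoded by Erbb2, is a receptor tyrosine kinase of the epidermal growth factor receptor family that signals as dimers to the MAPK and PI3K pathways and is amplified in a class of human breast cancers. The d16HER2 splice form lacks an exon of the extracellular part, which leaves a cysteine unpaired and lets the receptor form disulfide-bonded homodimers that signal without ligand. Mammary tumour cells in culture can keep an epithelial state, with keratins and cell junctions, or take on a mesenchymal state through transcription factors of the epithelial-to-mesenchymal transition (EMT) such as Snai2, Twist2 and Zeb1.

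RNA was read on Illumina BeadChips as a light intensity per probe, and values below are log2 intensities after background correction and quantile normalization. A gene was tested when a probe was detected, at a detection p under 0.05, on at least 4 of the 12 arrays, and 10350 genes were. A gene detected on no d16HER2 array could thus be tested only if all 4 WTHER2-2 arrays detected it. Arrays detected between 35.8% (WTHER2-2 replicate 4) and 42.4% (WTHER2-2 replicate 1) of the 45281 probes. MI6 and MI7 were hybridised together on BeadChips 1 and 2. WTHER2-2 replicates 1 and 2 were on BeadChip 3 and replicates 3 and 4 on BeadChip 4, so no BeadChip held both transgenes, and BeadChip and transgene cannot be told apart.

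The 2 BeadChips of WTHER2-2 stood apart from each other. Across genes, which are not independent replicates, correlations between arrays were 0.974 to 0.997 within either d16HER2 line and 0.991 and 0.96 within BeadChips 3 and 4, but 0.85 to 0.918 between BeadChips 3 and 4. A difference of at least 2-fold between the 2 BeadChips of a line was present in 30 genes of MI6, 42 of MI7 and 2110 of WTHER2-2. BeadChip 3 was the more like the d16HER2 arrays (r between 0.876 and 0.916), and BeadChip 4 the less like them (0.762 to 0.835). The labels give both the same cell line, and whether both hold the same cells cannot be told from these files, which bears on every value against the line mean. Differences are therefore given against each BeadChip, and for the main genes and lists also against the mean of the line.

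The labelled cell type was checked against marker genes. The mean of the 11 tested epithelial markers, among them Cdh1 (E-cadherin), Epcam, Krt8 and Krt18, was 11.71 to 11.99 on the d16HER2 arrays, 11.57 to 11.67 on BeadChip 3, and 8.36 and 6.30 on BeadChip 4. All 11 were detected on every d16HER2 array and on both arrays of BeadChip 3, and 7 of them on both arrays of BeadChip 4. Fibroblast markers ran the other way. Of 14, none was detected on all d16HER2 arrays, 9 were detected on both arrays of BeadChip 3 and 10 on both of BeadChip 4. The mean of the 8 tested fibroblast markers was 5.1 to 5.5 on the d16HER2 arrays, 8.17 and 8.29 on BeadChip 3, and 12.18 and 11.85 on BeadChip 4. The defining fibroblast markers Dcn, Pdgfrb and Pdpn were detected on no d16HER2 array and on all 4 arrays of WTHER2-2, whereas Lum, Fap and Dpt were detected nowhere. In bulk RNA, fewer cells of a type and less RNA per cell cannot be told apart.

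**Figure D1:**
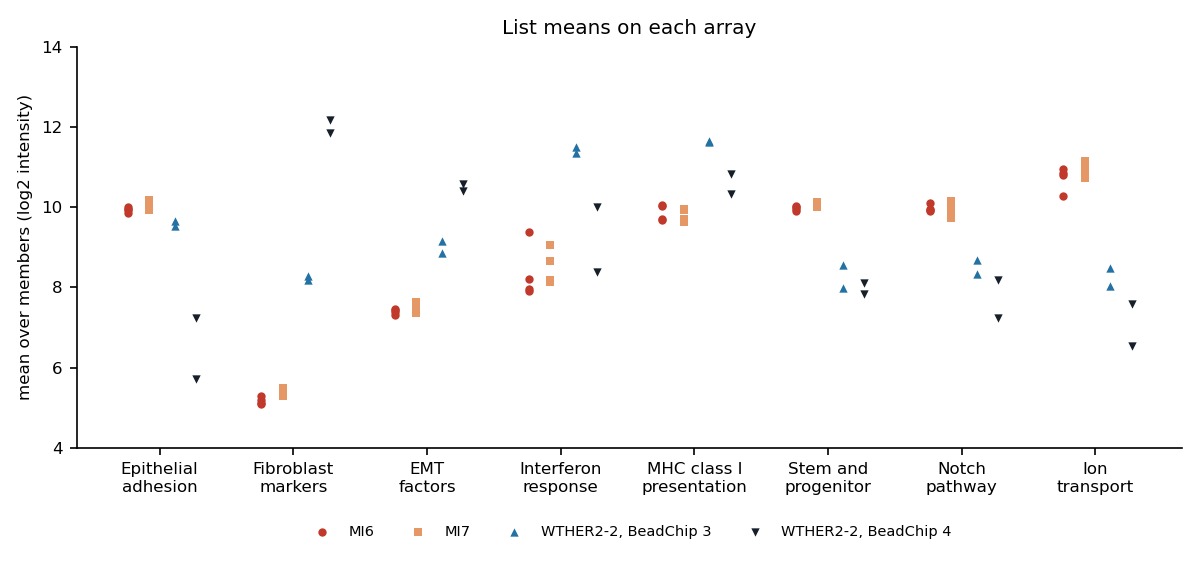
Mean log2 intensity (vertical axis) of 8 lists of genes (horizontal axis) on each array, with circles for MI6, squares for MI7, upward triangles for WTHER2-2 on BeadChip 3 and downward triangles for WTHER2-2 on BeadChip 4. Epithelial adhesion genes set BeadChip 4 apart, the fibroblast markers rise from the d16HER2 arrays (5.1 to 5.5) through BeadChip 3 to BeadChip 4, and the progenitor, Notch and ion-transport lists lie above both BeadChips in the d16HER2 lines.

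Against the line as a whole, 2080 of 10350 genes (20.1%) were called, which required a 2-fold difference or more and an adjusted p under 0.05 in limma. Of these, 1144 (11.1%) were higher and 936 (9.04%) lower in the d16HER2 lines. Against BeadChip 3 alone 1963 genes (19%) were called, 987 higher (9.54%) and 976 lower (9.43%). Against BeadChip 4 alone the number was 2830 (27.3%), 1598 higher (15.4%) and 1232 lower (11.9%). A gene was taken as agreeing on both BeadChips when MI6 and MI7, each set against each BeadChip, gave 4 calls of the same sign. This held for 932 genes (9%), 501 higher (4.84%) and 431 lower (4.16%). Every array of the d16HER2 lines lay beyond every WTHER2-2 array in 498 of the 501 and 428 of the 431. The rule itself favours such separation, so these counts are not separate evidence. Scaling the arrays to a common median in place of quantile normalization raised the median difference over all genes from 0.04 to 0.22 and the share of higher genes from 55% to 67.3% of the calls against the line. It rose likewise from 53.8% to 63.3% of those on both BeadChips, from 56.5% to 72.4% of those against BeadChip 4, and from 55.3% to 69.1% of those between the BeadChips. All 932 were also called against the line mean. The difference was larger on BeadChip 4 than on BeadChip 3 in 685 of them. MI6 and MI7 themselves differed in 249 genes (2.41%), 103 higher in MI6 (0.995%) and 146 lower (1.41%), and 63 of the 932 were among these.

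The same thresholds called 1938 genes (18.7%) between the BeadChips of WTHER2-2, 1072 higher (10.4%) and 866 lower (8.37%) on BeadChip 3, about as many as between the d16HER2 lines and BeadChip 3. A further 59 genes were called in opposite directions against the 2 BeadChips, 30 of them higher than BeadChip 3 and lower than BeadChip 4 and 29 the reverse. WTHER2-2 replicate 1 was the highest of the 4 WTHER2-2 arrays in 64.9% of the 501 higher genes and the lowest in 51% of the 431 lower ones, against 24.1% and 24.3% of all genes tested. Its values therefore lay nearest to the d16HER2 arrays more often than those of its partner on BeadChip 3, which was highest in 12.2% and lowest in 9.74%.

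**Figure D2:**
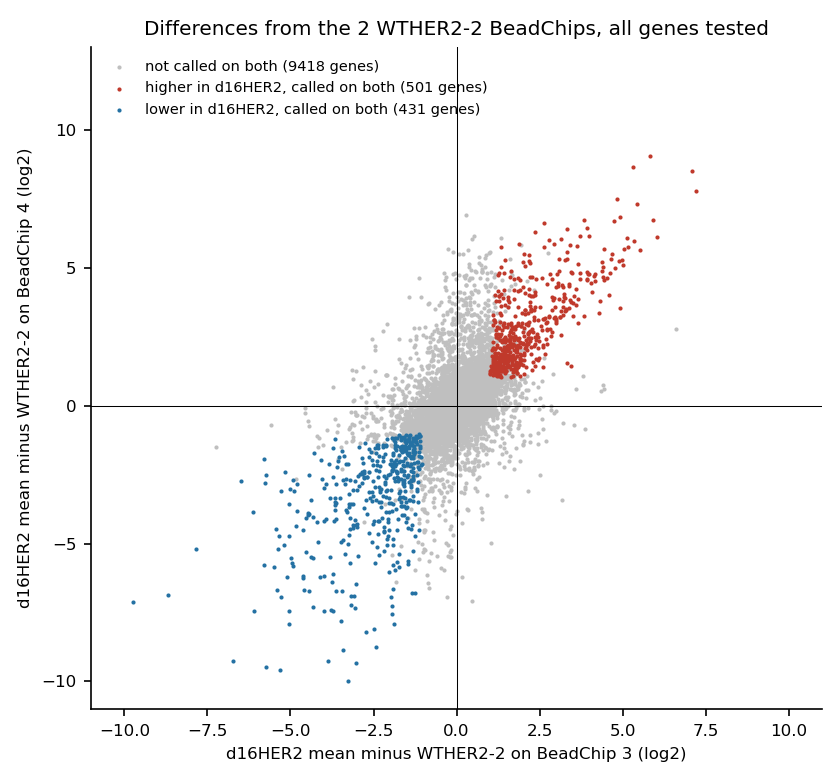
Difference of the d16HER2 mean from WTHER2-2 on BeadChip 3 (horizontal axis) and on BeadChip 4 (vertical axis), in log2 units, for each of the 10350 genes tested. Red points are the 501 genes higher and blue points the 431 genes lower on both BeadChips, and grey points are the rest.

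Of the 12 genes higher by most on both BeadChips, 10 were undetected on BeadChip 4. In what follows, d16HER2 values are the lowest, median and highest of the 8 arrays, and WTHER2-2 values are those of replicates 1 and 2 (BeadChip 3) and 3 and 4 (BeadChip 4). Paired differences and list medians are against BeadChip 3 and BeadChip 4, in that order, with the value against the line mean last where it is given. Differences are given with the standard error of the limma fit (n = 8 against 2, or against 4 for the line) and its Benjamini-Hochberg adjusted p. Chil1, a chitinase-like secreted glycoprotein, read 13.69, 14.85 and 15.01 in the d16HER2 lines and 8.09, 6.81, 7.89 and 5.88 in WTHER2-2, so every d16HER2 array exceeded every WTHER2-2 array. Its difference was 7.21 ± 0.47 against BeadChip 3 (adjusted p = 2.0e-07), 7.77 ± 0.47 against BeadChip 4 (adjusted p = 3.0e-08) and 7.49 ± 0.38 against the line mean (adjusted p = 4.6e-08). Krt23, a keratin of simple epithelia, was well above background on all d16HER2 arrays (9.51, 10.77 and 11.20) and on no array of WTHER2-2. It was at least 35.02-fold higher than BeadChip 3 and at least 28.04-fold higher than BeadChip 4, where the bound sets the d16HER2 mean against the dimmest signal detected on those arrays. Hs3st1, a heparan sulfate sulfotransferase, read 13.39, 13.74 and 13.99 against 8.28, 8.24, 7.62 and 5.15, and differed by 5.43 ± 0.41 against BeadChip 3 (adjusted p = 6.9e-07), 7.31 ± 0.41 against BeadChip 4 (adjusted p = 1.6e-08) and 6.37 ± 0.46 against the line mean (adjusted p = 7.9e-07). Igfals, the subunit that stabilises IGF complexes in serum, read 10.31, 11.45 and 12.26 against 5.55, 5.0, 5.2 and 5.19, and was higher in MI6 (12.09 ± 0.12) than in MI7 (10.52 ± 0.27).

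Single arrays carried part of this list. Sox10, a transcription factor of neural crest and mammary progenitor cells, read 13.34, 13.66 and 14.07 in the d16HER2 lines and 11.02, 4.67, 4.64 and 4.61 in WTHER2-2, so only replicate 1 rose above background. The difference from the line mean was 7.44, and without that replicate, with no WTHER2-2 array above background, Sox10 was at least 255-fold higher. C2cd4a had the same shape, with 13.05, 13.19 and 13.42 against 11.21, 4.6, 4.53 and 4.59, a difference of 6.98 from the line mean and, without replicate 1, at least 185-fold. Bricd5 (7.74, 4.77, 5.08 and 4.62) and Hhipl2 (6.54, 4.81, 5.03 and 4.72) also had their highest WTHER2-2 value on replicate 1. The other 4, Afap1l1 (an actin-associated adaptor), Car2 (a carbonic anhydrase), Gstk1 (a glutathione transferase) and Foxi1 (a transcription factor of ion-transporting cells), were 5.05 to 5.33 higher than BeadChip 3 and at least 24.1-fold to at least 31.1-fold higher than BeadChip 4, where none was detected. Over the 501 higher genes, 53 were detected on no WTHER2-2 array. The number of such genes among all genes tested is not given here, so no share can be set beside this count.

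**Figure D3:**
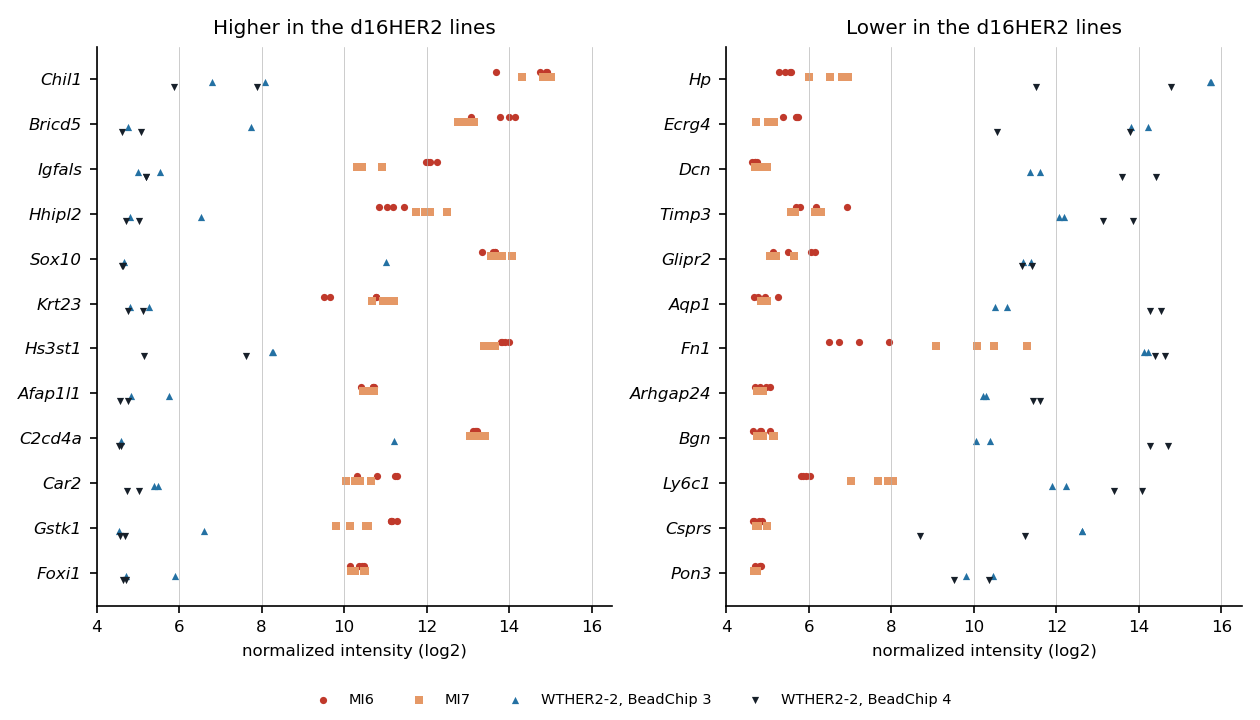
Normalized log2 intensity (horizontal axis) on each array of the 12 genes higher (left) and the 12 lower (right) by most on both BeadChips, with circles for MI6, squares for MI7 and triangles for WTHER2-2 on BeadChip 3 (upward) and 4 (downward). Sox10 and C2cd4a show 1 WTHER2-2 array of BeadChip 3 far above the other three, and in Fn1 the MI7 squares lie between the MI6 circles and the WTHER2-2 triangles.

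The 12 genes lower by most on both BeadChips included the matrix genes Dcn, Bgn, Fn1 and Timp3. Hp, haptoglobin, which binds free haemoglobin, read 5.27, 5.78 and 6.96 in the d16HER2 lines and 15.76, 15.73, 14.78 and 11.50 in WTHER2-2. It was the largest difference against BeadChip 3 among the 12, at -9.73 ± 0.56 against BeadChip 3 (adjusted p = 7.7e-08), -7.13 ± 0.56 against BeadChip 4 (adjusted p = 4.0e-07) and -8.43 ± 0.64 against the line mean (adjusted p = 1.1e-06), and 2 further Hp probes differed alike. Dcn and Bgn, the small proteoglycans decorin and biglycan of the collagen matrix, were detected on no d16HER2 array. Dcn read 11.37, 11.62, 14.40 and 13.60 in WTHER2-2 and was at least 61.5-fold higher there on BeadChip 3 and at least 350.3-fold on BeadChip 4. For Bgn (10.06, 10.40, 14.71 and 14.27) these bounds were 25.7-fold and 491-fold, so the 2 BeadChips themselves lay far apart. Fn1, fibronectin, read 6.48, 8.52 and 11.28 against 14.21, 14.12, 14.64 and 14.39, with MI6 at 7.1 ± 0.65 and MI7 at 10.24 ± 0.92. Timp3, an inhibitor of matrix metalloproteases, read 5.57, 5.98 and 6.91 against 12.05, 12.19, 13.85 and 13.14 and differed by -6.09 ± 0.31 against BeadChip 3 (adjusted p = 2.8e-08), -7.46 ± 0.31 against BeadChip 4 (adjusted p = 1.1e-09) and -6.78 ± 0.35 against the line mean (adjusted p = 4.6e-08).

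Outside the matrix genes, Ecrg4, a secreted protein, read 4.73, 5.26 and 5.73 against 13.81, 14.21, 13.78 and 10.57. Aqp1, a water channel, Arhgap24, a GTPase-activating protein, Csprs and Pon3, a paraoxonase, were detected on no d16HER2 array. Every array of WTHER2-2 detected them, as the filter then required. The bounds of these genes on BeadChip 3 ran from at least 24.05-fold (Pon3) to at least 135-fold (Csprs). On BeadChip 4 they ran from at least 21.1-fold (Pon3) to at least 459-fold (Aqp1). Ly6c1, a surface antigen, read 5.91 ± 0.09 in MI6 and 7.67 ± 0.45 in MI7 against 11.89, 12.24, 13.41 and 14.08. Glipr2 differed by -5.79 and -5.79, the same on both BeadChips. Probes of Ly6c1, Csprs, Hspa1a, H2-M3, Gsta3 and the Oas genes, which belong to families of similar genes, may read near-identical copies. In all, 114 of the 431 lower genes were detected on no d16HER2 array, out of 141 such genes tested.

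The ERBB receptors, the family of the transgene, were not called on both BeadChips. The mouse Erbb2 probe, of which the files do not say whether it also reads the transgene, gave 8.85, 9.02 and 9.27 in the d16HER2 lines and 9.32, 9.21, 7.78 and 7.36 in WTHER2-2. It differed by -0.25 ± 0.16 against BeadChip 3 (adjusted p = 0.241), 1.44 ± 0.16 against BeadChip 4 (adjusted p = 9.4e-06) and 0.59 ± 0.33 against the line mean (adjusted p = 0.163), so it passed the test against BeadChip 4 only. Egfr, the receptor of EGF, read 9.71, 9.9 and 10.45 against 11.21, 11.46, 10.42 and 9.6 and was lower than BeadChip 3 alone. Its difference was -1.39 ± 0.22 against BeadChip 3 (adjusted p = 2.5e-04), -0.06 ± 0.22 against BeadChip 4 (adjusted p = 0.816) and -0.73 ± 0.29 against the line mean (adjusted p = 0.0601). Erbb3, the kinase-impaired partner of HER2, was near background (5.0, 5.86 and 6.21 against 5.07, 5.04, 4.63 and 5.25) and Erbb4 was detected on no array. Of 11 tested ERBB receptors, ligands and negative regulators, 2 were higher and none lower on both BeadChips (18.2%, against 9% of all genes). The list medians were 0.18, 0.31 and 0.48 against medians over all genes of 0.07, 0.03 and 0.04. The 2 higher members were ligands. Hbegf, the heparin-binding ligand of Egfr, read 10.57, 11.43 and 11.64 against 10.02, 9.37, 8.63 and 7.94 and differed by 1.53 ± 0.23 against BeadChip 3 (adjusted p = 1.8e-04), 2.94 ± 0.23 against BeadChip 4 (adjusted p = 3.2e-07) and 2.24 ± 0.31 against the line mean (adjusted p = 1.2e-04), while a second probe differed by 0.32 and 1.05. Epgn, epigen, differed by 1.31 ± 0.35 against BeadChip 3 (adjusted p = 0.0107), 3.04 ± 0.35 against BeadChip 4 (adjusted p = 1.3e-05) and 2.17 ± 0.41 against the line mean (adjusted p = 0.00127). The Epgn call on both BeadChips was lost under 4 alternatives, among them no background correction and the authors' deposited normalized table. That of Hbegf was lost under 2, among them the mean of its probes.

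Downstream of the receptors, some genes that MAPK signalling is known to induce were called. The list of MAPK feedback inhibitors also holds genes that are not inhibitors, such as Etv5 and Ier3. Of its 15 tested members, 4 were higher and none lower on both BeadChips (26.7%, against 9% of all genes). The list medians were 0.69, 0.19 and 0.60. Dusp6, the phosphatase of ERK, read 13.90, 14.30 and 14.68 against 13.001, 13.08, 13.15 and 12.68 and differed by 1.22 ± 0.17 against BeadChip 3 (adjusted p = 1.2e-04), 1.35 ± 0.17 against BeadChip 4 (adjusted p = 2.9e-05) and 1.28 ± 0.14 against the line mean (adjusted p = 1.7e-05). Etv5, an ETS transcription factor, differed by 2.48 ± 0.31 against BeadChip 3 (adjusted p = 4.9e-05), 2.33 ± 0.31 against BeadChip 4 (adjusted p = 4.5e-05) and 2.41 ± 0.25 against the line mean (adjusted p = 1.3e-05), Ier3 by 1.62 and 2.19, and the brightest probe of Dusp4, another MAPK phosphatase, by 2.02 and 1.15. The 3 further Dusp4 probes differed by -1.43 to -0.62 against BeadChip 3, in the opposite direction, and by 0.95 to 1.12 against BeadChip 4, and Dusp4 was not called with the mean of its probes. Of 15 AP-1 and immediate early factors, 3 were higher and 1 lower, with medians of 0.73, 0.98 and 0.79. Egr3 read 11.46, 12.20 and 12.74 against 8.38, 7.18, 8.77 and 7.83 and Fosb 12.01, 12.89 and 13.84 against 10.10, 9.91, 9.94 and 10.75, and in both all d16HER2 arrays were higher, although a second Egr3 probe differed by only 0.40 and -0.15. Egr2 was higher by 2.02 and 1.91, and Klf4, a zinc finger factor that the list of progenitor genes also holds, was lower, by -1.72 and -3.10.

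The PI3K and SRC lists held fewer called members. Here and in the lists below, counts on both BeadChips stand against 9% of all genes, 4.84% higher and 4.16% lower. Of 18 PI3K, AKT and mTOR genes 2 were higher and 1 lower (16.7%), with medians of -0.10, 0.003 and -0.10. Foxo1, a transcription factor that AKT holds outside the nucleus, read 10.61, 10.68 and 11.29 against 9.72, 9.33, 8.18 and 7.82, Pik3r3, a regulatory subunit of PI3K, was higher by 1.13 and 2.09, and Eif4ebp1, the translation repressor phosphorylated by mTOR, was lower, by -1.31 and -1.63. Of 13 SRC family kinases and adaptors, Fyn and the adaptor Efs were higher and none lower on both BeadChips (15.4%, medians 0.02, 0.73 and 0.34). Against BeadChip 4, 6 were higher, as were 15.4% of all genes. Efs was higher in MI6 (8.14 ± 0.13) than in MI7 (6.58 ± 0.62), and a second Fyn probe differed by only 0.31 and -0.17.

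Epithelial adhesion genes differed mainly from BeadChip 4. Of 33 tested genes of adhesion, junctions and epithelial splicing, 30 were higher than BeadChip 4 and 4 higher than BeadChip 3, where 1 was lower, and 28 were called between the BeadChips of WTHER2-2. Over all genes, 15.4% were higher than BeadChip 4, 9.54% were higher and 9.43% lower than BeadChip 3, and 18.7% were called between the BeadChips. The list medians were 0.27, 3.64 and 2.08. Cdh1 read 11.57, 11.70 and 12.05 in the d16HER2 lines and 11.93, 11.98, 9.25 and 7.33 in WTHER2-2, so that its BeadChip 3 arrays were within the d16HER2 range and its BeadChip 4 arrays below it. Esrp1, an epithelial splicing regulator, had the same order (12.91, 13.19 and 13.29 against 13.22, 13.17, 10.59 and 6.12). Grhl2, an epithelial transcription factor, was lower on BeadChip 3 than on any d16HER2 array but was not called there (10.78, 10.90 and 11.31 against 10.13, 10.25, 7.29 and 4.89). Krt8 and Krt18, the keratins of luminal cells, were not called against BeadChip 3 (adjusted p = 0.154 and 0.0523) and were 5.36 and 4.14 higher than BeadChip 4. Epcam read 6.73, 7.21 and 7.66 against 6.53, 6.51, 4.81 and 4.55 and was at least 2.71-fold higher than BeadChip 4, where it was undetected.

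The 4 epithelial genes higher on both BeadChips were Cldn1, Ocln, Jup and Muc1. The calls of Ocln and Muc1 were lost without background correction and in the authors' deposited normalized table. Cldn1, a claudin of tight junctions, read 9.39, 10.26 and 11.51 against 7.33, 6.81, 7.06 and 6.64, and MI7 (10.92 ± 0.46) exceeded MI6 (9.78 ± 0.34). Its difference was 3.28 ± 0.28 against BeadChip 3 (adjusted p = 1.8e-06), 3.5 ± 0.28 against BeadChip 4 (adjusted p = 3.9e-07) and 3.39 ± 0.22 against the line mean (adjusted p = 3.5e-07). Ocln, occludin, was detected on all d16HER2 arrays and on both arrays of BeadChip 3 but not on BeadChip 4. The d16HER2 lines were 1.29 higher than BeadChip 3 and at least 8.68-fold higher than BeadChip 4. Jup, plakoglobin of desmosomes and adherens junctions, and Muc1, an apical mucin, differed by 1.76 and 1.93 from BeadChip 3. Against BeadChip 4, Jup was at least 3.77-fold higher and Muc1 differed by 1.83. Of 9 keratins, Krt23 and Krt15 were higher on both, with Krt15 at 6.15, 7.39 and 7.69 against 5.58, 5.63, 5.67 and 5.87. The call of Krt15 was lost under 5 alternatives, among them no background correction. Of 8 basal and myoepithelial genes none was called on both BeadChips. Krt14, the basal keratin, read 9.71 ± 0.25 in MI6, 11.95 ± 0.26 in MI7 and 10.37, 10.51, 6.25 and 5.14 in WTHER2-2, and Itgb4, the hemidesmosome integrin, differed by 0.49 ± 0.17 against BeadChip 3 (adjusted p = 0.033), 2.86 ± 0.17 against BeadChip 4 (adjusted p = 2.2e-08) and 1.68 ± 0.44 against the line mean (adjusted p = 0.00884).

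The 40 lists were chosen with earlier results of these data known. Among them, EMT transcription factors had the highest share of genes lower on both BeadChips. Of 12 tested, 7 were lower and none higher on both (58.3%), with medians of -1.58, -3.28 and -2.30. Twist2 was detected on no d16HER2 array and read 8.18, 8.77, 9.89 and 10.45 in WTHER2-2, at least 7.61-fold higher on BeadChip 3 and at least 24.6-fold on BeadChip 4. Snai2, also called Slug, was likewise undetected in the d16HER2 lines and read 7.87, 8.19, 9.59 and 9.1. Zeb1, a repressor of E-cadherin, read 7.81, 8.2, 11.27 and 11.59, at least 5.48-fold on BeadChip 3 and at least 59-fold on BeadChip 4. Snai1 was lower, by -1.58 and -2.80, and Prrx1 by -2.02 and -3.85. Foxc2 was at least 2.47-fold and at least 20.8-fold higher in WTHER2-2. The fibroblast marker means given above moved with these factors, and their part in the difference was not tested.

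Matrix and mesenchymal genes, like the fibroblast markers whose part was not tested, were lower by more against BeadChip 4. Of 23 mesenchymal cytoskeleton, adhesion and receptor genes, 10 were lower and none higher on both BeadChips, with medians of -0.87, -2.69 and -1.83. Emp3, a membrane protein, read 5.55, 5.99 and 6.35 against 10.79, 11.19, 13.86 and 13.90, and Sparc, a collagen-binding glycoprotein, 7.11, 7.78 and 8.92 against 12.51, 12.62, 14.27 and 13.997. Emp3 differed by -5.04 ± 0.21 against BeadChip 3 (adjusted p = 5.9e-09), -7.92 ± 0.21 against BeadChip 4 (adjusted p = 1.6e-11) and -6.48 ± 0.54 against the line mean (adjusted p = 2.2e-06). For Sparc the differences were -4.61 ± 0.39 (adjusted p = 1.7e-06) and -6.18 ± 0.39 (adjusted p = 4.2e-08). Postn, periostin, was undetected in the d16HER2 lines and read 7.42, 8.31, 8.4 and 6.27. Of 22 lysyl oxidases, prolyl hydroxylases and matrix proteoglycans, 9 were lower and none higher (medians -0.82, -2.07 and -1.49). Ogn, osteoglycin, read 6.32, 7.48 and 9.8 against 12.41, 12.71, 13.51 and 10.99; the groups did not overlap. Vcan, versican, was detected on 3 of the 8 d16HER2 arrays and read 4.75 ± 0.11 in MI6, 5.97 ± 0.37 in MI7 and 7.45, 7.63, 9.81 and 9.69 in WTHER2-2.

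Collagens and proteases were more mixed. Of 16 collagen chains 4 were lower and 2 higher on both BeadChips, with medians of -0.15, -1.15 and -0.48. Col5a1, a fibrillar chain, read 4.75, 5.09 and 6.35 against 8.0, 8.58, 12.33 and 12.78 and differed by -3.06 ± 0.33 against BeadChip 3 (adjusted p = 1.5e-05), -7.33 ± 0.33 against BeadChip 4 (adjusted p = 2.3e-09) and -5.2 ± 0.8 against the line mean (adjusted p = 2.9e-04). The lines disagreed in Col6a1 (MI6 4.96 ± 0.2, MI7 6.8 ± 0.43) and, in the other direction, in the basement membrane chain Col4a6 (MI6 7.15 ± 0.49, MI7 5.28 ± 0.7), but both chains were below WTHER2-2 (10.17, 10.25, 13.36 and 13.01 and 9.31, 9.35, 10.67 and 10.42). Col11a1 was among the higher ones, by 1.84 on BeadChip 3 and at least 2.44-fold on BeadChip 4, but a second Col11a1 probe differed by -0.002 and -0.13, and the call was lost with the mean of its probes, without background correction and in the authors' deposited normalized table. Of 23 matrix proteases and inhibitors 5 were lower and none higher. Mmp14, the membrane-bound metalloprotease, was far apart in MI6 (6.11 ± 0.27) and MI7 (11.03 ± 0.28), and read 13.47, 13.63, 14.40 and 13.79 in WTHER2-2. Mmp13, a collagenase, read 5.24, 5.89 and 6.71 against 8.97, 9.47, 11.95 and 8.2, and moved from -3.65 to -2.89 against the line mean without WTHER2-2 replicate 3. Without replicate 2 it was -3.71, still called against the line mean but not on both BeadChips, and a second probe differed by only -0.10 and -0.47. Among 18 integrins and laminins, Itga5, the fibronectin receptor chain, was lower, by -2.40 and -5.13, Itgb5 was lower, by -1.62 and -1.18, and Itga6, the laminin receptor chain of basal and progenitor cells, was higher by 1.74 and 2.18, though 2 further Itga6 probes differed by -0.04 and 0.27 and by 0.75 and 1.65.

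The d16HER2 lines had lower interferon response genes, above all against BeadChip 3. Interferons act through transcription factors that bind the interferon-stimulated response element (ISRE), and induce antiviral genes and the machinery that presents peptides on MHC class I. The promoters of 3 members called on both BeadChips are shown because each holds the element. The search used the letters GAAA, any 2 bases and GAAA again, on both strands, in windows around the start that RefSeq annotates (GRCm38.p6). Printed are the 170 bases before the start, 5′ to 3′ on the gene's strand, with matches in capitals (in Ifit3 they are on the opposite strand, and in Bst2 and Irgm1 they overlap).

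Ifit3, chr19:34583359-34583528, plus strand: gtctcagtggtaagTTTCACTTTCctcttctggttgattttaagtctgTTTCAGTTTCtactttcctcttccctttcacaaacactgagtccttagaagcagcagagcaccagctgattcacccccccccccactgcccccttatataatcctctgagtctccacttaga
Bst2, chr8:71537473-71537642, minus strand: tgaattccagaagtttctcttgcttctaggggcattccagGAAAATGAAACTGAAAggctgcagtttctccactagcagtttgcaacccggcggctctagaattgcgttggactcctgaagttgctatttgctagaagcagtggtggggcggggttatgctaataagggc
Irgm1, chr11:48871421-48871590, minus strand: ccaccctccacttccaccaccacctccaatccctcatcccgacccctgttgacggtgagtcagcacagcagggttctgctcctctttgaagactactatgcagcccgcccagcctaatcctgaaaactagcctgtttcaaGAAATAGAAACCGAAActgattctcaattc

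The letters were present in 15 of 26 tested interferon genes with a window (57.7%), in 3 of 6 called on both BeadChips, in 3.54% of all tested genes, in 7.27% of the genes lower and 2.58% of the genes higher on both BeadChips. A match is a description of the letters, not a binding site. Of 37 tested interferon genes, 34 were lower than BeadChip 3 and 10 lower than BeadChip 4, as were 9.43% and 11.9% of all genes. On both, 7 were lower (18.9%, against 4.16% of all genes) and none higher, with medians of -2.88, -0.72 and -1.74. Ifit3, an antiviral RNA-binding protein, read 7.3, 8.01 and 10.31 against 14.06, 14.15, 12.58 and 9.69, so the lowest array of BeadChip 4 lay inside the d16HER2 range. It differed by -5.78 ± 0.8 against BeadChip 3 (adjusted p = 1.1e-04), -2.81 ± 0.8 against BeadChip 4 (adjusted p = 0.0103) and -4.3 ± 0.82 against the line mean (adjusted p = 0.00128). Bst2, tetherin, which holds budding virions at the surface, read 7.61, 7.85 and 9.4 against 12.15, 12.31, 11.23 and 10.46 with no overlap, and differed by -4.05 ± 0.46 against BeadChip 3 (adjusted p = 2.3e-05), -2.67 ± 0.46 against BeadChip 4 (adjusted p = 3.9e-04) and -3.36 ± 0.44 against the line mean (adjusted p = 8.8e-05). Irgm1, an interferon-induced GTPase, was high throughout (12.69, 12.85 and 13.32 against 14.20, 14.40, 13.86 and 14.11) and was lower, by -1.39 and -1.08, a call that was lost under 4 alternatives, among them median scaling and the mean of its probes.

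The other interferon genes varied within both groups. Oas2, a sensor that makes oligoadenylates from double-stranded RNA, was detected on 1 of the 8 d16HER2 arrays (4.74, 4.92 and 6.28) and read 11.08, 11.38, 10.83 and 7.04 in WTHER2-2. Oasl2 read 7.09, 8.15 and 9.6 against 13.17, 13.34, 12.29 and 9.7, and Irf1, a transcription factor that interferon gamma induces, 10.70, 11.26 and 11.60 against 13.54, 13.76, 12.67 and 12.68. Isg15, a ubiquitin-like modifier, differed by -4.03 from BeadChip 3 but was not called against BeadChip 4 (adjusted p = 0.0927). Over the whole list the mean was 7.91 to 9.37 on the d16HER2 arrays, highest on the replicates 4 of MI6 (9.37) and MI7 (9.06), 11.36 and 11.51 on BeadChip 3, and 10.01 and 8.38 on BeadChip 4, so that WTHER2-2 replicate 4 lay within the d16HER2 range. Without it, the differences from the line mean moved from -4.30 to -5.24 for Ifit3, from -4.98 to -6.04 for Oas2 and from -3.81 to -4.59 for Oasl2. Without replicate 3, Ifit3, Ifit2, Oasl2 and Psmb9 were no longer called on both BeadChips, and Oasl2 also lost that call under median scaling and without either of replicates 2 and 3 of MI7.

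MHC class I genes went with them. Of 19 tested genes of class I antigen presentation 4 were lower and none higher on both BeadChips (21.1%). Against BeadChip 3, 14 were lower, as were 9.43% of all genes. The medians were -1.77, -0.55 and -1.16. Psmb8, an immunoproteasome subunit, read 8.3, 9.38 and 10.24 against 13.77, 13.73, 13.11 and 12.45 and differed by -4.38 ± 0.37 against BeadChip 3 (adjusted p = 1.8e-06), -3.41 ± 0.37 against BeadChip 4 (adjusted p = 6.7e-06) and -3.9 ± 0.34 against the line mean (adjusted p = 3.1e-06). Its partner Psmb9 differed by -3.46 ± 0.36 against BeadChip 3 (adjusted p = 1.1e-05), -1.66 ± 0.36 against BeadChip 4 (adjusted p = 0.002) and -2.56 ± 0.43 against the line mean (adjusted p = 5.3e-04). Nlrc5, the transactivator of class I genes, was detected on no d16HER2 array. It was detected on all of WTHER2-2, as the filter then required (7.85, 8.46, 7.93 and 8.03), at least 6.08-fold and at least 5.38-fold higher. H2-M3, a non-classical class I chain, was lower, by -2.94 and -2.93, nearly the same on both BeadChips. Of the leukocyte markers, 7 (among them Ptprc, Itgam, Lyz2 and Cd3e) were detected on no array, while Csf1r, Aif1 and Cd14 were detected on all 12, with Cd14 higher in the d16HER2 lines on both BeadChips. The mean of these 3 was 8.03 to 8.42 on the d16HER2 arrays and 7.32 to 8.07 on those of WTHER2-2.

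Among genes of mammary stem and progenitor cells, of 21 tested, 10 were higher and 1 lower on both BeadChips (52.4%), with medians of 1.5, 2.11 and 1.40. Beside Sox10, Aldh1a3, the aldehyde dehydrogenase behind the stem cell dye assay, read 8.95, 10.09 and 10.82 against 5.56, 4.6, 4.78 and 4.63 and was at least 18.4-fold higher than BeadChip 4. Id4, an inhibitor of basic helix-loop-helix factors, read 8.77, 9.64 and 10.43 against 6.45, 4.85, 4.81 and 4.67. Kit, the receptor of stem cell factor found on luminal progenitors, read 10.81 ± 0.27 in MI6, 12.16 ± 0.49 in MI7 and 8.06, 8.28, 5.53 and 4.65 in WTHER2-2. It was higher by 3.31 than BeadChip 3 and at least 52.8-fold higher than BeadChip 4. Elf5, the ETS factor of alveolar progenitors, read 12.05, 12.46 and 12.70 against 9.08, 8.54, 8.55 and 4.76, and its difference from the line mean moved from 4.70 to 3.69 without WTHER2-2 replicate 4, where it was undetected. Lgr6 was higher by 2.38 on BeadChip 3 and at least 16.3-fold on BeadChip 4, and Bcl11a by 1.85 and at least 3.39-fold. Cxcr4, the receptor of the chemokine Cxcl12, read 8.77, 9.36 and 9.77 against 6.12, 4.71, 4.73 and 4.76. The mean of the 3 tested Schwann and neural crest markers, Sox10 among them, was 9.41 to 9.85 on the d16HER2 arrays and 8.57, 6.48, 5.33 and 5.11 in WTHER2-2, and its part in these differences was not tested.

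Milk and secretory genes differed more from BeadChip 4 than from BeadChip 3, whereas luminal hormone receptors and lineage factors did not. Of 13 luminal hormone receptors and lineage factors 2 were higher and 1 lower on both (medians 0.40, 0.31 and 0.18). Esr1, the oestrogen receptor, was lower (4.94, 5.67 and 5.83 against 7.39, 8.01, 7.32 and 6.51), and Tfap2c, an AP-2 transcription factor, was higher (14.27, 14.52 and 14.67 against 12.60, 12.03, 11.29 and 7.23). Its difference was 2.19 ± 0.66 against BeadChip 3 (adjusted p = 0.0193), 5.24 ± 0.66 against BeadChip 4 (adjusted p = 2.7e-05) and 3.71 ± 0.75 against the line mean (adjusted p = 0.00185), and that from the line mean moved from 3.71 to 2.50 without replicate 4 of WTHER2-2. Of 14 milk and secretory genes, Ltf, Muc15 and Folr1 were higher and none lower on both (medians 0.82, 1.88 and 0.89). Against BeadChip 4, 8 were higher, as were 15.4% of all genes. Ltf, the iron-binding milk protein lactoferrin, read 13.73, 14.27 and 14.79 against 10.16, 8.88, 8.66 and 5.04, and Folr1, a folate receptor, 10.08, 10.82 and 11.31 against 6.73, 5.29, 6.83 and 4.73.

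The Notch pathway, which sets luminal fate in the mammary gland, had higher members among ligands, receptors and targets. Of 12 tested genes 6 were higher and 1 lower on both BeadChips (58.3%), with medians of 1.77, 2.01 and 1.70. The ligand Dll1 read 10.20, 11.08 and 11.66 against 8.21, 7.67, 7.76 and 5.49 and differed by 2.99 ± 0.49 against BeadChip 3 (adjusted p = 3.7e-04), 4.3 ± 0.49 against BeadChip 4 (adjusted p = 1.0e-05) and 3.64 ± 0.45 against the line mean (adjusted p = 5.3e-05). The receptors Notch3 (10.55, 10.76 and 11.75 against 8.66, 8.08, 7.05 and 7.58) and Notch4 (10.26, 10.47 and 10.97 against 8.49, 8.29, 8.19 and 7.6) were above all WTHER2-2 arrays on every d16HER2 array. Among the target genes, Nrarp, a feedback inhibitor, differed by 2.93 ± 0.42 against BeadChip 3 (adjusted p = 1.3e-04), 5.86 ± 0.42 against BeadChip 4 (adjusted p = 1.5e-07) and 4.4 ± 0.61 against the line mean (adjusted p = 1.4e-04), and Hes1, a transcriptional repressor, by 1.79 ± 0.37 against BeadChip 3 (adjusted p = 0.00221), 2.46 ± 0.37 against BeadChip 4 (adjusted p = 1.3e-04) and 2.13 ± 0.32 against the line mean (adjusted p = 2.3e-04). Hey1, a related repressor, read 13.01, 13.97 and 14.13 against 11.33, 10.70, 10.13 and 5.45, and moved from 4.39 to 3.05 against the line mean without WTHER2-2 replicate 4. Without replicate 1 it was 5.04 and without replicate 2 it was 4.82, each still called against the line mean but no longer on both BeadChips. Numb, an inhibitor of Notch receptors, was the member that was lower (7.22, 8.41 and 9.17 against 10.48, 10.65, 10.55 and 10.19), but 4 further Numb probes differed by 0.23 to 1.28 the other way, and with the mean of its probes in place of the brightest the difference from the line mean was 0.08. The letters GTGGGAA of the RBPJ motif, searched on both strands, were in 0 of the 10 tested Notch genes with a window and in 7.25% of all genes, which says only that these letters are not in these windows. Hes1 and Hey1 had no window and were not searched.

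Among the 40 lists, chosen with earlier results of these data known, ion-transporting epithelial genes had the highest share of calls. Its members Foxi1 and Car2 are also among the 12 genes higher by most, so the 2 rankings are not independent. Of 13 tested, 9 were higher and none lower on both BeadChips (69.2%), with medians of 2.20, 3.62 and 2.78. Beside Foxi1 and Car2, Clic6, a chloride channel protein, read 11.80, 13.09 and 13.30 against 8.26, 7.99, 7.57 and 4.8 and differed by 4.75 ± 0.56 against BeadChip 3 (adjusted p = 2.8e-05), 6.69 ± 0.56 against BeadChip 4 (adjusted p = 6.4e-07) and 5.72 ± 0.56 against the line mean (adjusted p = 8.6e-06). Atp6v1c2, a subunit of the proton pump that Foxi1 regulates in kidney, read 8.55, 10.03 and 11.12 against 8.47, 7.38, 6.57 and 6.43, and a second probe differed by 0.76 and 0.30. Fxyd3, a regulator of the sodium pump, read 14.29, 14.80 and 14.96 against 11.69, 11.51, 10.71 and 6.68, and moved from 4.60 to 3.40 without WTHER2-2 replicate 4. Scnn1a, the alpha subunit of the epithelial sodium channel, was unequal in MI6 (7.99 ± 0.55) and MI7 (10.38 ± 0.67) and was at least 10.7-fold higher than BeadChip 4. Kcnn4, a calcium-activated potassium channel, was higher by 2.33 and 3.23, Slc12a2, the sodium, potassium and chloride cotransporter, by 1.39 and 1.34, and Trpv6, a calcium channel, by 1.54 and at least 8.37-fold.

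**Figure D4:**
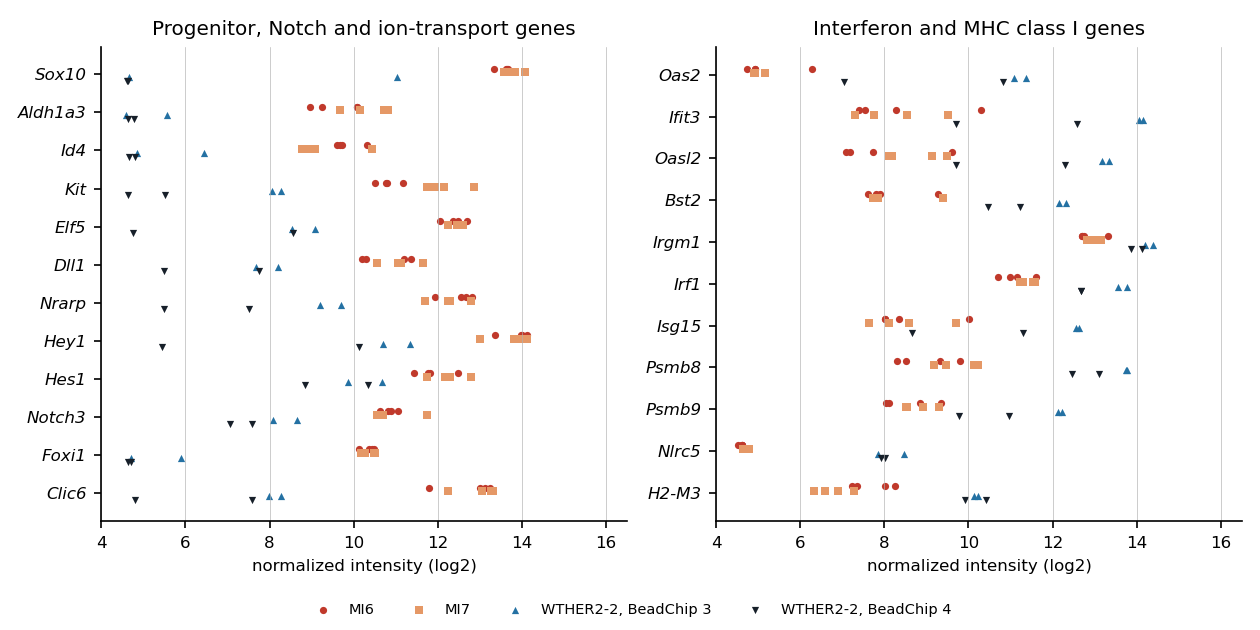
Normalized log2 intensity (horizontal axis) on each array of progenitor, Notch and ion-transport genes (left) and of interferon and MHC class I genes (right), with circles for MI6, squares for MI7 and triangles for WTHER2-2 on BeadChip 3 (upward) and BeadChip 4 (downward). On the left the d16HER2 arrays lie above all WTHER2-2 arrays, and on the right the WTHER2-2 arrays of BeadChip 4 come near or inside the d16HER2 range in Ifit3, Oasl2 and Isg15.

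Other signalling genes gave shorter lists. Of 19 Wnt genes 4 were higher and none lower (medians 0.99, 1.04 and 0.80). Nkd2, a feedback antagonist, differed by 2.23 ± 0.37 against BeadChip 3 (adjusted p = 4.0e-04), 3.48 ± 0.37 against BeadChip 4 (adjusted p = 5.4e-06) and 2.85 ± 0.36 against the line mean (adjusted p = 6.9e-05). Also higher were the receptor Fzd5 (10.998, 11.22 and 11.61 against 9.13, 8.72, 8.82 and 9.35) and the transcription factor Tcf7l2 (higher by 1.74 and 1.67). Fzd3 was higher by 1.42 on BeadChip 3 and at least 1.97-fold on BeadChip 4. Further probes of Fzd3 (0.28 and 0.50), Fzd5 (0.59 and 0.70) and Tcf7l2 (0.97 and 0.95) differed by less than 2-fold. Another probe of Fzd3 (1.09 and 1.58) and another of Tcf7l2 (1.59 and 1.36) differed by more than 2-fold. Of 24 receptor tyrosine kinases and ligands outside the ERBB family 5 were lower and 1, Kit, higher. Pdgfra, the receptor of platelet-derived growth factor on mesenchymal cells, read 4.97, 5.3 and 6.24 against 8.97, 9.41, 12.96 and 12.68, Pdgfrb was undetected in the d16HER2 lines and read 5.92, 6.16, 9.46 and 8.86, and the ligand Fgf7 was undetected there and read 6.61, 6.89, 10.64 and 11.08. Both Pdgfra and Pdgfrb are among the fibroblast markers described above. Ntrk2, the receptor of BDNF, read 8.22, 8.55, 9.38 and 6.32 and was undetected in the d16HER2 lines. Igf1 was lower, by -1.15 and -1.14. Of 21 TGF-beta, activin and BMP genes only Bmp4 was called on both, at 6.76, 7.44 and 8.19 against 11.90, 11.88, 10.90 and 9.04, and of 9 IGF-binding proteins and complex genes Igfals was higher while Htra1, a secreted protease, and Igfbp6 were lower. Htra1 read 8.3 ± 0.6 in MI6, 10.33 ± 0.19 in MI7 and 13.04, 12.90, 12.99 and 12.83 in WTHER2-2. Igfbp6 was at least 2.85-fold higher in WTHER2-2 on BeadChip 3 and at least 229-fold on BeadChip 4.

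Chemokine and cytokine genes were called in both directions, 3 higher and 4 lower of 21. Il33, an alarmin, read 5.05, 5.29 and 7.04 against 10.17, 10.28, 12.53 and 9.47, and Il18 5.16, 5.6 and 5.96 against 9.0, 9.52, 9.11 and 9.2. Ccl5, a chemokine of T cells, was lower, by -4.09 and -1.98, and Csf3, the granulocyte growth factor, was higher by 2.24 and at least 5.33-fold at its brightest probe, whereas a second probe differed by -0.004 and -0.50. Of 21 guidance genes, Sema3b was higher by 2.01 and 1.47, and the receptors Plxna2 (-2.3 and -3.12) and Nrp2 (-2.28 and -3.48) were lower. Of 11 acute phase, complement and serpin genes, Hp and Kng1, kininogen, were lower and none higher. Kng1 was undetected in the d16HER2 lines and read 7.42, 7.65, 13.29 and 12.96.

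Growth and metabolic lists differed in their share of calls. Of 33 replication and mitosis genes 2 were higher on both (6.06%, against 9% of all genes), although 29 and 31 of them were above the mean of BeadChips 3 and 4. Their list mean was 8.64 to 9.86 on replicates 1 and 4 of the d16HER2 lines, 10.29 to 10.46 on replicates 2 and 3, and 8.68 to 9.17 in WTHER2-2. Mybl2, a cell-cycle transcription factor, read 7.71, 8.95 and 9.33 against 7.05, 6.61, 6.84 and 6.36 and Cenpf, a kinetochore protein, 6.27, 7.35 and 8.29 against 5.56, 5.4, 5.42 and 6.16. Of 17 D and E cyclins and CDK inhibitors only Ccnd2 was called on both, undetected in the d16HER2 lines and at 7.76, 8.05, 11.23 and 12.02 in WTHER2-2. Of 20 p53 targets 3 were lower and none higher (medians -0.45, -0.61 and -0.71). Sesn1, a sestrin, differed by -2.21 ± 0.19 against BeadChip 3 (adjusted p = 2.0e-06), -1.84 ± 0.19 against BeadChip 4 (adjusted p = 4.2e-06) and -2.03 ± 0.16 against the line mean (adjusted p = 1.6e-06). The others were Trp53inp1 (-1.83 and -1.99) and Psrc1 (-1.43 and -1.73).

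Of 27 glycolysis and hypoxia genes 6 were higher and 2 lower on both (29.6%, with medians of 0.56, 0.95 and 0.80). Ldhd, the mitochondrial lactate dehydrogenase for D-lactate, read 10.88, 12.41 and 13.59 against 8.82, 6.41, 6.01 and 5.43, Car12, a carbonic anhydrase, 9.43, 9.83 and 10.37 against 5.72, 5.22, 5.03 and 4.71, and Egln1, the oxygen sensor of HIF, 7.77, 8.68 and 9.79 against 6.5, 5.69, 6.32 and 6.67. Pfkp, a phosphofructokinase, was higher by 1.76 and 2.79, and Pdk1, a kinase that inhibits pyruvate dehydrogenase, by 1.78 and 1.34. Of 22 cholesterol and fatty acid genes Srebf1, Dhcr7 and Scd1 were higher and none lower, although the list medians were -0.14, -0.16 and -0.14. Scd1, a desaturase, read 14.64, 14.77 and 14.94 against 13.59, 13.52, 13.37 and 13.68 with little spread in either group. Of 28 glutathione and antioxidant genes 2 were higher and 4 lower. Gsta3, a glutathione transferase, read 10.29, 10.56 and 11.23 against 5.26, 6.05, 5.98 and 5.22, while Hmox1, haem oxygenase, differed by -2.86 ± 0.39 against BeadChip 3 (adjusted p = 9.4e-05), -2.4 ± 0.39 against BeadChip 4 (adjusted p = 2.2e-04) and -2.63 ± 0.32 against the line mean (adjusted p = 4.6e-05) and Mt2, a metallothionein, by -1.75 ± 0.32 against BeadChip 3 (adjusted p = 8.9e-04), -4.12 ± 0.32 against BeadChip 4 (adjusted p = 3.5e-07) and -2.94 ± 0.49 against the line mean (adjusted p = 5.2e-04).

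Of 19 ATF4 targets and serine synthesis genes 2 were higher and 2 lower (medians -0.35, -1.23 and -0.77). Ddit3, the stress factor CHOP, read 9.34, 9.79 and 10.32 against 12.95, 12.75, 11.69 and 13.37, Phgdh, the first enzyme of serine synthesis, 6.62, 7.06 and 8.78 against 9.83, 9.95, 11.16 and 12.04, and Shmt1 was higher by 1.65 and 2.5. Single calls remained in smaller lists. Alox12e, an epidermal lipoxygenase, was higher (9.4, 10.50 and 11.53 against 7.34, 4.85, 4.84 and 4.89), Aldh3a1, an aldehyde dehydrogenase, was lower (-2.98 and -5.46), and Hspb8, a small heat shock protein, was lower (5.79, 6.19 and 6.52 against 9.45, 9.84, 13.72 and 14.20). Of 18 S100 and annexin genes, S100a14 (3.27 on BeadChip 3 and at least 7.16-fold on BeadChip 4) and S100a1 (2.31 and 1.59) were among 3 higher, and Anxa8 was lower, more so in MI6 (5.16 ± 0.12) than in MI7 (7.0 ± 0.21). Cd59a, a complement inhibitor anchored in the membrane, was higher in the list of Ly6 and GPI-anchored antigens (13.57, 13.79 and 13.83 against 10.22, 10.86, 10.05 and 8.82).

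**Figure D5:**
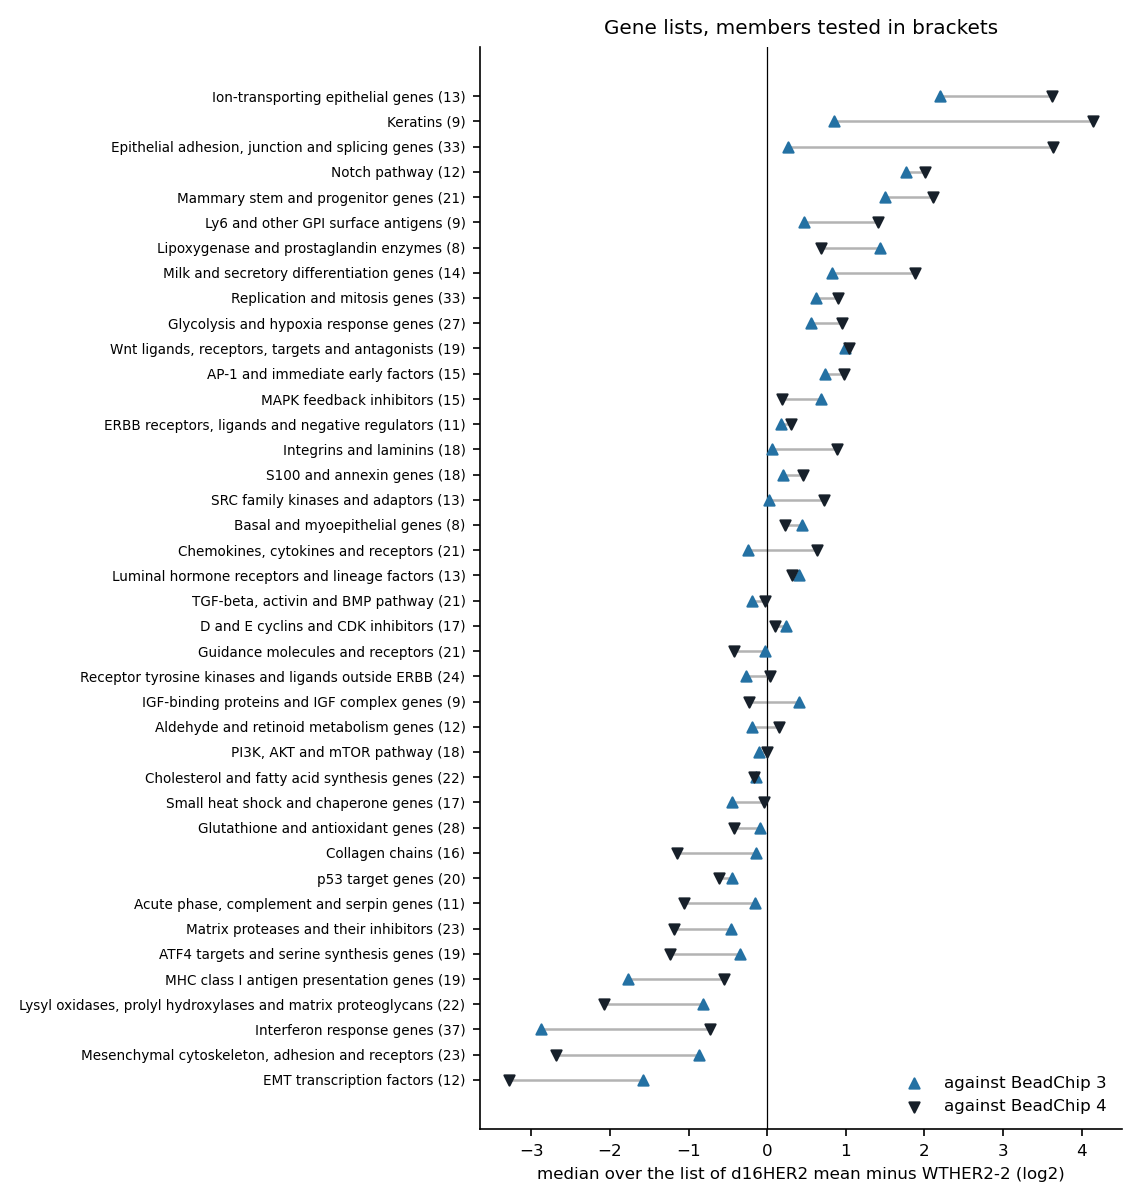
Median over each of the 40 gene lists (vertical axis, with the number of members tested) of the difference between the d16HER2 mean and WTHER2-2 (horizontal axis, log2), upward triangles against BeadChip 3 and downward triangles against BeadChip 4, joined by a line. Ion-transport, Notch and progenitor genes lie above 1 on both BeadChips, the EMT factors below -1 on both, the epithelial genes near 0 on BeadChip 3 and at 3.64 on BeadChip 4, and the interferon genes at -2.88 and -0.72.

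The genes with opposite calls show how far the choice of BeadChip can decide a direction. Sema5a, a semaphorin, read 9.96, 10.38 and 10.62 in the d16HER2 lines and 7.38, 7.0, 13.80 and 13.76 in WTHER2-2, so the d16HER2 arrays lay between the BeadChips. It differed by 3.18 ± 0.17 against BeadChip 3 (adjusted p = 3.8e-08), -3.41 ± 0.17 against BeadChip 4 (adjusted p = 5.9e-09) and -0.12 ± 1.17 against the line mean (adjusted p = 0.946). Prickle2, of the planar polarity pathway, and Snhg18, a non-coding host gene of small nucleolar RNA, had the same order (5.55, 5.39, 10.89 and 10.10 and 8.48, 8.19, 13.35 and 13.80 in WTHER2-2). Slc39a4, a zinc importer, Cxcl16, a chemokine, and Hspa1a, the inducible heat shock protein, had the opposite one. Slc39a4 read 7.67, 8.01 and 8.71 against 10.60, 10.71, 6.22 and 5.16, Cxcl16 10.27, 10.94 and 11.29 against 13.02, 13.12, 9.45 and 6.87, and Hspa1a 8.18, 8.67 and 9.23 against 11.08, 11.18, 6.55 and 6.44. Against the line mean these 6 genes differed by -0.47 to 0.25, and none was called. Further probes did not all differ as far. A further Sema5a probe differed by 3.02 and -3.45, but another by only 0.03 and -0.28. A second Cxcl16 probe differed by -0.86 and 2.40, and a second Hspa1a probe by -2.46 and 0.33.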

How the data were processed

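RNA of 12 arrays was read on Illumina mouse BeadChips. The deposited table holds, per the file headers, an average signal intensity and a detection p-value for each of 45281 probes and each array, not normalized. BeadStudio is the tool named in the submitters' processing notes, with the version not given in the sources used here. The authors' second deposited table holds quantile-normalized linear intensity values and was used only as an alternative.

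Intensities were background-corrected with normexp from the detection p-values (offset 16), quantile-normalized over the 12 arrays and put on the log2 scale in R 4.3.3 with limma 3.58.1 and statmod 1.5.0. The offset compresses differences of dim genes, and quantile normalization removes shifts common to an array. Probes detected at p under 0.05 on at least 4 arrays were kept (19252), the brightest probe stood for a gene, and 10350 genes were tested. Of all probes, 34885 had 1 gene symbol, 18 several and 10378 none. Names and promoter windows came from RefSeq tables (GRCm38.p6), and probe sequences were not used here.

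A limma fit of the 3 lines gave the difference from the WTHER2-2 mean, and a fit of MI6, MI7 and the 2 BeadChips of WTHER2-2 gave the others, both with limma's variance prior following intensity. The number of arrays limits the precision, and it is lowest for the BeadChips, with 2 arrays each. A call needed a 2-fold difference or more and a Benjamini-Hochberg adjusted p under 0.05. The fits were tested on simulated data with known changes.

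Genes are named by rule: the 4 ERBB receptors, the 12 genes in each direction with the largest smaller difference of the 2 BeadChips, up to 3 members of each of 40 lists called on both BeadChips (2 members where none was), the 6 strongest opposite calls, and any cell type marker, with numbered predicted genes left out. Other genes were named after their values were seen. The members and lists were chosen with earlier results of these data known. Alternatives changed the background correction, normalization, detection filter, probe choice, BeadChip handling, array weights, variance prior and fold threshold, or left out arrays, a line or a BeadChip. Another took the mean of each line as the replicate.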

Additional observations from a re-analysis of the deposited data

Results flagged for a closer look

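Single arrays lay far from the other three of their line in 41 of the 498 groups of 4 arrays examined (a named gene in a line), by Dixon's test of the gap over the range, and chance flags about 1 in 20 groups. Values are normalized log2 intensities, each given beside the range of the other arrays of the line. The arrays concerned were MI6 replicate 4 in 12 groups, WTHER2-2 replicate 1 in 10, WTHER2-2 replicate 4 in 6, MI7 replicate 4 in 5, MI6 replicate 3 in 4, MI7 replicate 1 in 3 and MI6 replicate 2 in 1.

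WTHER2-2 replicate 1 was the highest array of its line in Bricd5, Hhipl2, Sox10, C2cd4a, Gstk1, Foxi1, Id4, Srebf1, Cxcr4 and Alox12e. Bricd5 read 7.74 against 4.62 to 5.08 and Hhipl2 read 6.54 against 4.72 to 5.03. Sox10 read 11.02 against 4.61 to 4.67 and C2cd4a read 11.21 against 4.53 to 4.60. Gstk1 read 6.61 against 4.54 to 4.69 and Foxi1 read 5.89 against 4.64 to 4.72. Id4 read 6.45 against 4.67 to 4.85 and Srebf1 read 8.52 against 7.97 to 8.04. Cxcr4 read 6.12 against 4.71 to 4.76 and Alox12e read 7.34 against 4.84 to 4.89.

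WTHER2-2 replicate 4 was the lowest array of its line in Ecrg4, Itga6, Itgb5, Oas2, Nkd2 and Elf5. Ecrg4 read 10.57 against 13.78 to 14.21 and Itga6 read 6.58 against 7.46 to 7.48. Itgb5 read 11.36 against 12.15 to 12.20 and Oas2 read 7.04 against 10.83 to 11.38. Nkd2 read 8.06 against 10.24 to 10.53 and Elf5 read 4.76 against 8.54 to 9.08.

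MI6 replicate 4 was the highest array of its line in Oas2, Egln1, Mt2, S100a14 and Irgm1. Oas2 read 6.28 against 4.74 to 4.93 and Egln1 read 9.79 against 8.55 to 8.69. Mt2 read 7.08 against 5.98 to 6.11 and S100a14 read 8.70 against 7.95 to 7.97. Irgm1 read 13.32 against 12.69 to 12.74. MI6 replicate 4 was the lowest array of its line in Chil1, Sox10, Afap1l1, Pon3, Clic6, Prrx1 and Atp6v1c2. Chil1 read 13.69 against 14.74 to 14.91 and Sox10 read 13.33 against 13.62 to 13.66. Afap1l1 read 10.41 against 10.71 to 10.71 and Pon3 read 4.69 against 4.82 to 4.84. Clic6 read 11.80 against 13 to 13.24 and Prrx1 read 6.34 against 6.51 to 6.52. Atp6v1c2 read 8.55 against 9.80 to 10.04.

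MI7 replicate 4 was the highest array of its line in Zeb1, Ogn, Oas2 and Bst2. Zeb1 read 5.02 against 4.89 to 4.91 and Ogn read 9.80 against 7.41 to 7.61. Oas2 read 5.16 against 4.90 to 4.93 and Bst2 read 9.40 against 7.72 to 7.86. MI7 replicate 4 was the lowest array of its line in Ldhd. Ldhd read 12.47 against 13.46 to 13.59.

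MI6 replicate 3 was the highest array of its line in Cdh1. Cdh1 read 11.87 against 11.63 to 11.67. MI6 replicate 3 was the lowest array of its line in Ecrg4, Mmp14 and Nlrc5. Ecrg4 read 5.37 against 5.70 to 5.73 and Mmp14 read 5.70 against 6.19 to 6.27. Nlrc5 read 4.52 against 4.62 to 4.63.

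MI7 replicate 1 was the highest array of its line in Foxo1, Col4a6 and Notch3. Foxo1 read 11.29 against 10.61 to 10.66 and Col4a6 read 6.32 against 4.82 to 5.02. Notch3 read 11.75 against 10.55 to 10.71.

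MI6 replicate 2 was the lowest array of its line in Cd59a. Cd59a read 13.66 against 13.80 to 13.82.

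The difference from WTHER2-2 was not the same in MI6 and MI7 for 16 named genes, tested in the fit as the MI6 effect minus the MI7 effect, which share the WTHER2-2 arrays. MI6 was lower than MI7 in Mmp14 (-4.92), Fn1 (-3.14), Scnn1a (-2.39) and Krt14 (-2.24). It was also lower than MI7 in Htra1 (-2.03), Anxa8 (-1.84), Col6a1 (-1.84) and Ly6c1 (-1.77). It was also lower than MI7 in Kit (-1.36), Vcan (-1.22) and Cldn1 (-1.14). MI6 was higher than MI7 in Nrp2 (1.2), Plxna2 (1.43), Efs (1.56) and Igfals (1.57). It was also higher than MI7 in Col4a6 (1.86).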

How the results depend on the processing

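Besides the reported setting, 29 alternatives were run, 1 of them, a looser detection filter (2 arrays), chosen after seeing the data. Without a minimum fold the counts were 4473 against the line, 4052 against BeadChip 3, 5439 against BeadChip 4, 1895 on both and 3163 between the BeadChips, as follows from its construction, and under every other alternative run they stayed within 1.5 times of the reported ones. Leaving out 1 array gave 1812 to 2199 calls against the line, 1388 to 1994 against BeadChip 3, 2392 to 3011 against BeadChip 4, 625 (without WTHER2-2 replicate 2) to 980 on both, and 1429 to 2253 between the BeadChips; where a WTHER2-2 array is left out, its BeadChip keeps 1 array, assumed to vary like the others. Without background correction 669 genes were called on both BeadChips, 659 of them shared with the 932, and with the authors' deposited normalized table it was 656 genes, 646 of them shared. The other counts on both BeadChips ran from 896 (mean of the probes) to 1221 (without the line MI7).

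Of the 148 named genes called on both BeadChips, 101 kept that call under every alternative in which they were tested. The other 47 lost it under 1 or more, most often Cenpf (13), Tfap2c (11) and Igf1 (9). Genes detected on WTHER2-2 arrays only failed the filter when a WTHER2-2 array or BeadChip was left out. Dcn, for example, was tested in 23 of the 29 alternatives. Leaving out a BeadChip or taking line means as replicates gave only calls against the line mean, which were counted instead. Over the alternatives, 4 to 15 interferon genes, 2 to 9 EMT factors and 2 to 8 MHC class I genes were lower, and 9 to 10 progenitor, 7 to 11 ion-transport and 4 to 8 Notch genes higher, on both. Leaving out 1 WTHER2-2 array moved 27 of the named genes called on both by over 1.5-fold. Leaving out an array of MI6 or MI7 moved 0. Taking line means as replicates leaves 1 value for WTHER2-2. The call against the line mean was then lost in the named genes Fn1, Mmp14, Col4a6, Htra1, Plxna2, Anxa8, Efs, Scnn1a, Sema3b and Krt14.

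Differences from the line mean that changed sign were mainly those of the genes with opposite calls. Under median scaling these were Sema5a (0.001), Prickle2 (0.196), Slc39a4 (0.075) and Hspa1a (0.084), and with the mean of the probes Numb (0.081). Array weights turned Erbb2 (-0.18), Sema5a (2.82), Prickle2 (2.20), Cxcl16 (-2.03) and Snhg18 (1.59). Without the line MI6 these were Prickle2 (0.346) and Hspa1a (0.07), and without MI7 Slc39a4 (0.088) and Cxcl16 (-0.026). Without BeadChip 3 Slc39a4 was 2.43 and Hspa1a 2.18, and without BeadChip 4 Erbb2 was -0.251, Sema5a 3.17, Prickle2 2.56, Cxcl16 -2.19, Snhg18 2.14, Cdh1 -0.178 and Esrp1 -0.035. Leaving out 1 array gave -0.866 to 0.973 for Prickle2, -1.06 to 0.782 for Slc39a4, -0.934 to 0.636 for Hspa1a, -1.28 to 0.99 for Sema5a, -0.989 to 1.09 for Cxcl16 and -1.39 to 0.482 for Snhg18. The cause was not tested. No paired analysis was possible because the labels give no replicate numbers and no BeadChip held both transgenes. Genes near background have differences limited by the signal of the dimmest detected probes.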
